A study of Mus musculus with 4 samples.

Results

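Hox cluster genes encode homeodomain transcription factors that tell cells where they lie along the axes of the body. They sit in clusters A, B, C and D, and genes of the same number in different clusters, such as Hoxa4 and Hoxb4, are paralogs that descend from a shared ancestor. Genes with low numbers are switched on early and towards the head, and genes with high numbers later and towards the tail and the tips of the limbs. Fibroblasts keep much of the Hox pattern of the place they were taken from, and Hoxa5 in particular is needed for normal development of the lung. Polycomb proteins keep silent Hox genes packed away, Trithorax proteins keep active ones open, and retinoic acid is a known inducer of the low-numbered genes.

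The genes described here are all array rows with exactly 1 annotated symbol made of Hox, a cluster letter and a number. This gave 37 genes, each with 1 row, of 19938 genes with a row of their own. By cluster there were 10 genes in A, 9 in B, 9 in C and 9 in D.

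The RNA came from primary lung fibroblasts, cells that grew out of collagenase-digested lung and were kept in medium with serum, without treatment. The submitters checked by immunofluorescence that the cultures were myofibroblasts. KrasD12 samples A and B came from the line numbered 493, made from lungs of mice aged 3 to 4 weeks that carry the KrasD12 allele and are called SKY in the design text. WT samples A and B came from the line numbered 494, made from wild-type mice of the same ages. Each genotype is 1 line, so line and genotype cannot be told apart, and the labels name no driver of the allele. Nothing states how A and B of a line relate, so the p-values below measure only their spread, which may be technical. In such bulk cultures, more RNA per cell and more cells of a type cannot be told apart.

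The deposited values are on a log2 scale, and the KrasD12 columns as a whole lie higher: their medians were 6.24 and 6.26, against 5.90 and 5.91 in WT. This shift depended on the level, with a median difference of 0.39 for genes with means from 5 to 6 and 0.07 for means from 9 to 10. Differences (KrasD12 minus WT) were tested with limma over all genes, on the deposited values and again after the 4 columns were given a shared distribution by quantile normalization. In limma the spread used for a gene is drawn partly from all genes, so an SE is not the gene's own spread alone. Below, rose and fell are used only of genes whose adjusted p was under 0.05 in the same direction on both scalings. A level of 5.15, which 95% of rows for olfactory and vomeronasal receptors do not exceed, marks dim rows, whose differences can be compressed. All 12 fibroblast markers lay above it in both groups, and the lung mesenchyme markers did so for 4 of 5 in KrasD12 and 5 of 5 in WT. The missing one was Tcf21, a transcription factor of lung mesenchyme, with 4.55 and 4.76 in KrasD12, against 6.85 and 6.51 in WT. The lung mesenchyme list was split: of the 5, 2 rose (Tbx5 and Foxf1) and 2 fell (Tcf21 and Tbx4). Of the 12 fibroblast markers 2 rose and 4 fell. Of all genes 22.4% rose and 11.5% fell.

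Of the 37 Hox genes, 14 (37.8%) rose in KrasD12 and 0 fell, against a background of 22.4% of all genes that rose and 11.5% that fell. The risers were Hoxa6, Hoxa11, Hoxb3, Hoxb4, Hoxb5, Hoxb6, Hoxb7, Hoxc4, Hoxc5, Hoxc6, Hoxd4, Hoxd8, Hoxd10 and Hoxd13. On the deposited values alone, limma called 21 Hox genes higher (50.1% of all genes) and 0 lower (11.9% of all genes), and at an unadjusted p under 0.05 the counts were 24 (53.8% of all genes) and 0 (13.3% of all genes). After quantile normalization it called 14 higher (22.5% of all genes) and 6 lower (24.4% of all genes). The median difference of the 37 genes was 0.51 on the deposited values, where all genes had 0.26. On the quantile scale it was 0.12, where all genes had -0.0038.

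These counts rest on all 4 arrays. For the fits without a KrasD12 array, the share of all genes that rose on both scalings was not counted. The Hox counts of those fits therefore have no background beside them. With an array left out, the number that rose was 4 without KrasD12 A and 5 without KrasD12 B. It was 0 without WT A and 0 without WT B, where limma called no gene of the whole table and 45.9% and 48.6% of the Hox genes had an unadjusted p under 0.05, near the 49.4% and 50.3% of all genes. Differences ran between -0.24 for Hoxa5 and 1.06 for Hoxc5, and Hoxc5 was the only member past 2-fold on the deposited values. None of the 37 passed 2-fold on both scalings.

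**Figure D1:**
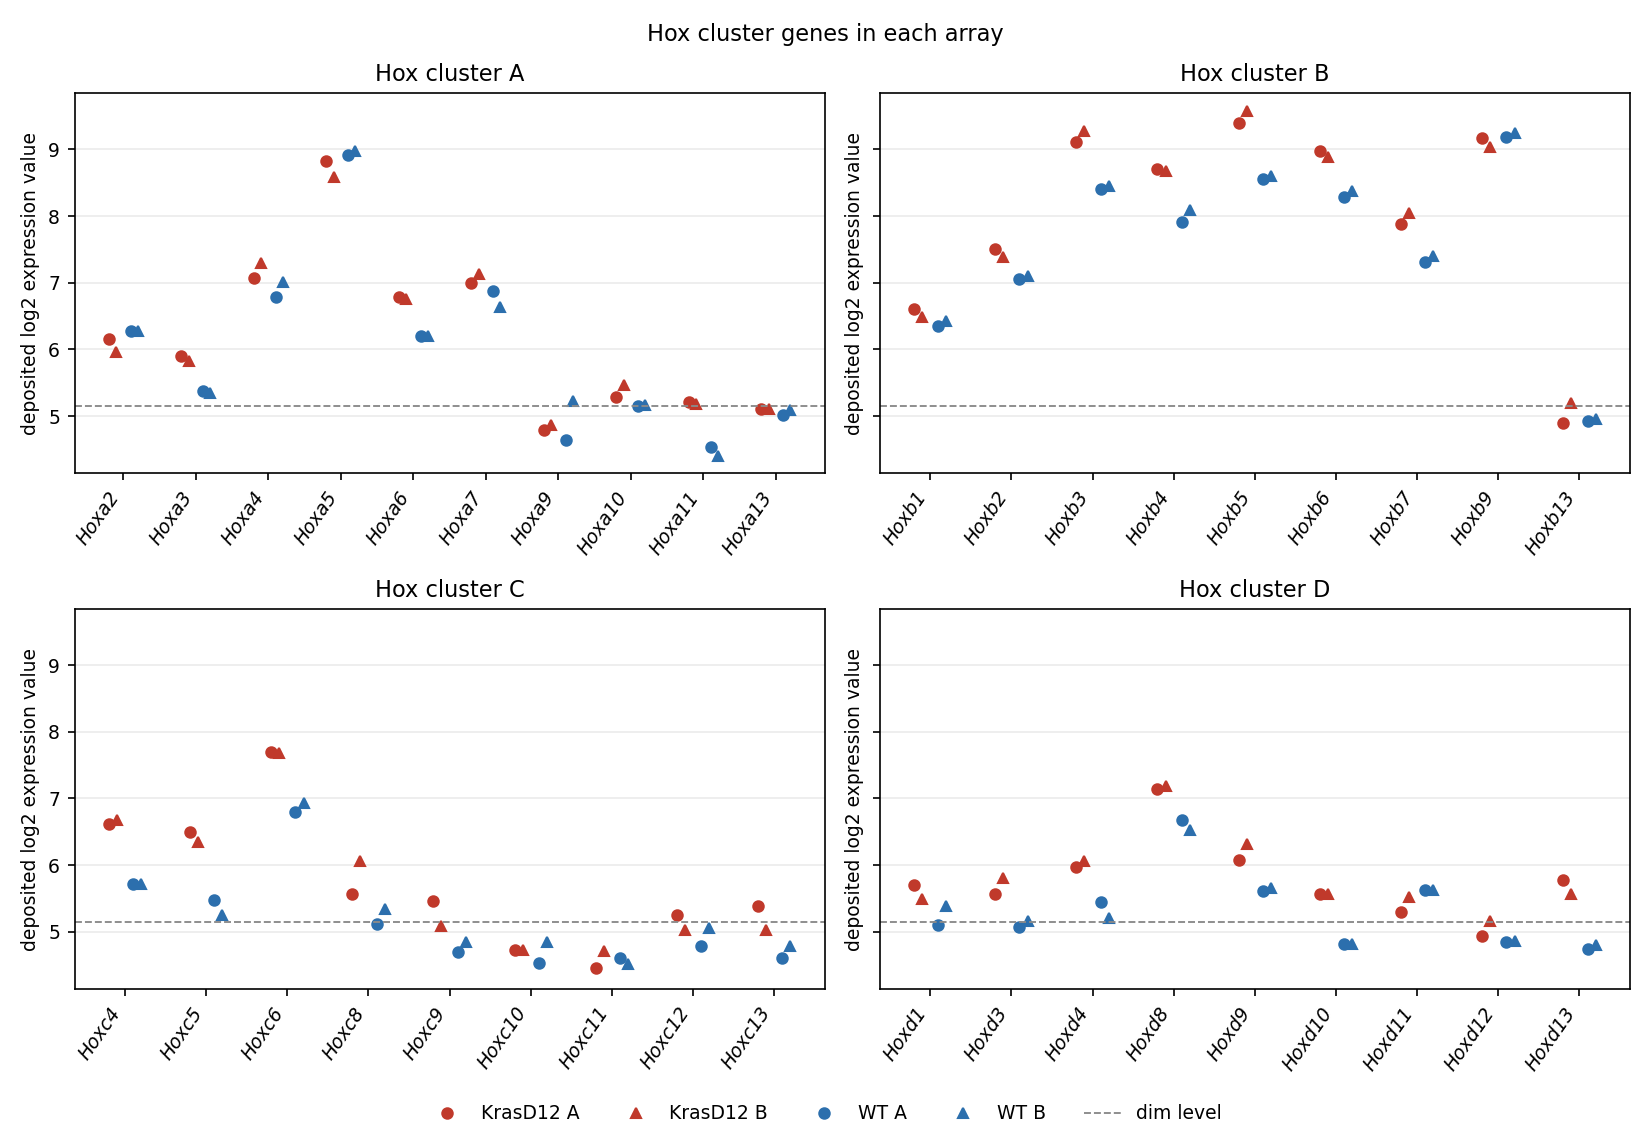
Deposited log2 expression values (y axis) of the 37 Hox genes (x axis, by paralog number) in each of the 4 arrays, 1 panel per cluster; red marks are KrasD12, blue marks WT, circles sample A and triangles sample B, and the dashed line is the dim level of 5.15. From Hoxb3 to Hoxb7 and from Hoxc4 to Hoxc6 both KrasD12 marks lie above both WT marks. Many other Hox genes show the same, among them Hoxa4 and Hoxa7, which did not pass on either scaling. The KrasD12 columns as a whole lie higher, and the share of all genes without overlap was not counted. For Hoxa2, Hoxa5, Hoxb9 and Hoxd11 both KrasD12 marks lie below both WT marks. Heights of different genes are not comparable.

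The genes in the middle of the clusters moved most often. Among paralogs 4 to 8, which pattern the neck and chest levels of the body, 10 of 14 rose, a share of 71.4%. Of all genes 22.4% rose, and of all genes above the dim level 24.5%. Among paralogs 1 to 3, the genes of hindbrain and throat, 1 of 7 rose (14.3%). For paralogs 9 to 13, the genes of the lower trunk and limbs, it was 3 of 16 (18.8%). The median deposited difference was 0.60 for paralogs 4 to 8, 0.37 for paralogs 1 to 3 and 0.21 for paralogs 9 to 13. After quantile normalization it was 0.36 for paralogs 4 to 8, 0.12 for paralogs 1 to 3 and -0.18 for paralogs 9 to 13.

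Dimness differs between these bands. All 14 genes of paralogs 4 to 8 had a mean above the dim level, but only 6 of the 16 of paralogs 9 to 13 did. Of these 6, Hoxd10 and Hoxd13 passed it only through their KrasD12 arrays. Over the whole family 27 genes lay above that level and 10 under it. How much of the contrast between the bands follows from dimness was not tested.

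To take the level-dependent shift into account, each gene was set against the median difference of the non-Hox genes whose mean lay within 0.5 of its own. By this measure 23 of 37 Hox genes lay above genes of like level and 14 lay under them. For paralogs 4 to 8 it was 13 of 14, Hoxa5 being the exception, and for paralogs 9 to 13 it was 6 of 16. Of those 13, 10 are genes that rose, so this contrast in large part repeats the calls. The others, Hoxa4, Hoxa7 and Hoxc8, lay above by 0.045, 0.04 and 0.20. The 14 risers lay above by 0.25 for Hoxa6 to 0.83 for Hoxb5, which their choice largely fixes, since quantile normalization removes much the same shift.

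**Figure D2:**
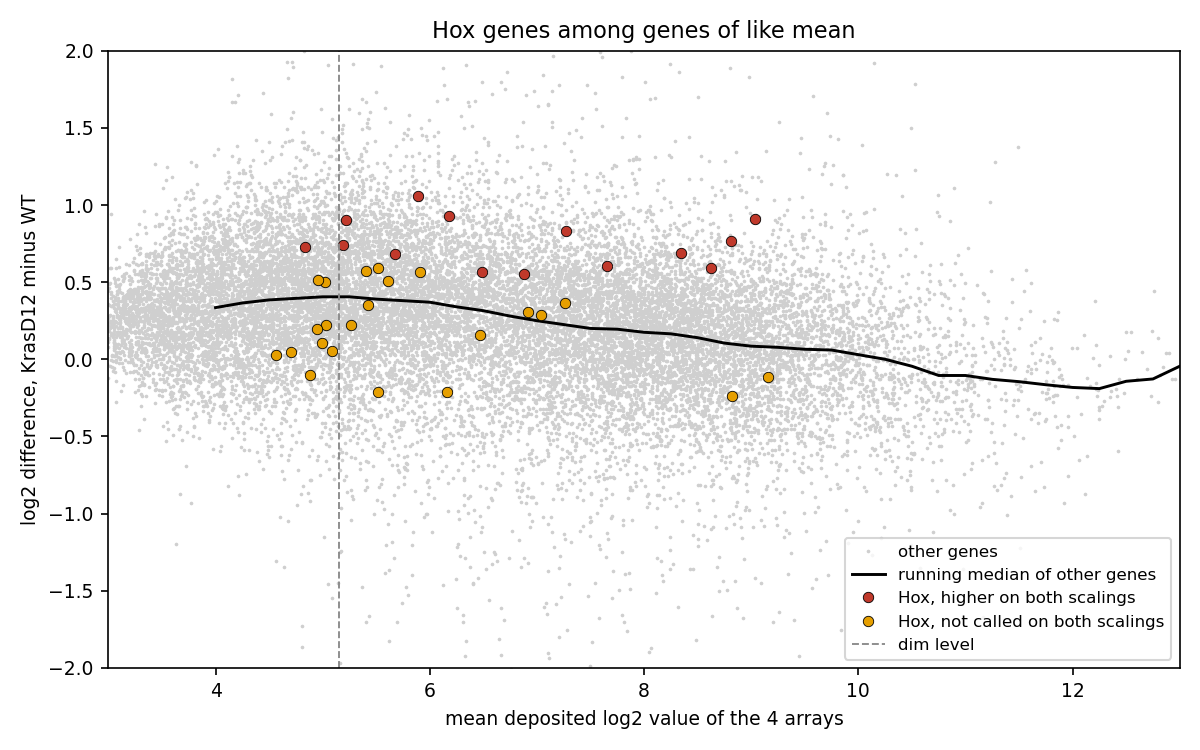
Difference KrasD12 minus WT (log2, y axis, cut at -2 and 2) against the mean deposited log2 value of the 4 arrays (x axis); red points are Hox genes that rose on both scalings, orange points the other Hox genes, grey dots all other genes, the black line their running median and the dashed line the dim level. The 14 red points, chosen on a scale that removes much of this shift, lie above the black line, which itself falls with the mean.

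Cluster B held the longest run of neighbours that rose. Its members Hoxb3, Hoxb4, Hoxb5, Hoxb6 and Hoxb7 all rose, 5 of the 9 genes measured there (55.6%, against 22.4% of all genes). They rose by 0.60 to 0.91 on the deposited values and 0.40 to 0.82 after quantile normalization. The nearest measured genes on either side, Hoxb2 and Hoxb9, were not called on both scalings. The median difference of the cluster was 0.60, or 0.40 on the quantile scale.

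Hoxb5, which takes part in the branching of the developing airways, had 9.40 and 9.58 in KrasD12 A and B, against 8.56 and 8.60 in WT A and B. Its difference of 0.91 ± 0.0855 (SE), or 1.88-fold, had an adjusted p of 0.00111, and the quantile value was 0.82. Both KrasD12 arrays lay well clear of both WT arrays. For every gene that rose or fell, the call itself largely fixes such a gap, so it is no further evidence. Hoxb3, active in the hindbrain and throat region, had 9.11 and 9.28 in KrasD12, against 8.40 and 8.45 in WT (difference 0.77 ± 0.0841, adjusted p 0.00154). Hoxb4, known for enlarging the pool of blood stem cells when it is overexpressed, had 8.71 and 8.67 in KrasD12, against 7.91 and 8.09 in WT (difference 0.69 ± 0.0855, adjusted p 0.0021). For both genes the groups were apart by more than the spread within either.

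Hoxb6 had 8.97 and 8.88 in KrasD12, against 8.29 and 8.37 in WT, a difference of 0.60 ± 0.0741 with an adjusted p of 0.00213. Hoxb7 had 7.88 and 8.04 in KrasD12, against 7.31 and 7.40 in WT, a difference of 0.61 ± 0.0853 with an adjusted p of 0.003. These neighbours of the chest level did not overlap between groups either, which their calls largely fix. Hoxb9, which shapes the ribs, broke the run, with 9.17 and 9.03 in KrasD12, against 9.19 and 9.24 in WT. Its KrasD12 arrays were slightly lower, and the difference of -0.12 ± 0.0787 did not pass (adjusted p 0.248).

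At the head end of the cluster, Hoxb2, which acts in the hindbrain, had 7.50 and 7.38 in KrasD12, against 7.05 and 7.10 in WT. Its difference of 0.37 ± 0.0756 passed on the deposited values (adjusted p 0.00985) but not after quantile normalization (0.12, adjusted p 0.249). Hoxb1, another hindbrain gene, had 6.61 and 6.48 in KrasD12, against 6.35 and 6.42 in WT, a difference of 0.16 on the deposited and -0.17 on the quantile scale. Neither passed. Hoxb13, known for its part in the prostate, was under the dim level by both group means, with 4.90 and 5.20 in KrasD12 and 4.93 and 4.96 in WT.

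Cluster C held the largest deposited difference, that of Hoxc5, while on the quantile scale Hoxb5 stood higher (0.82, against 0.70 for Hoxc5). Hoxc4, Hoxc5 and Hoxc6, the first genes of this cluster in mice, all rose, 3 of 9 (33.3%, against 22.4% of all genes). They rose by 0.83 to 1.06 on the deposited values and 0.58 to 0.70 after quantile normalization. Hoxc5 had 6.50 and 6.34 in KrasD12, against 5.47 and 5.25 in WT, a difference of 1.06 ± 0.105 or 2.09-fold (adjusted p 0.00124). Hoxc4 had 6.61 and 6.68 in KrasD12, against 5.71 and 5.72 in WT, a difference of 0.93 ± 0.0679 (adjusted p 0.0007). Hoxc6, a gene of the upper chest level, had 7.70 and 7.68 in KrasD12, against 6.79 and 6.93 in WT, a difference of 0.83 ± 0.0775 (adjusted p 0.00109). For each of them the gap between the groups was several times the spread within a group.

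Beyond these, Hoxc8, which acts in motor neurons of the arm level, had 5.57 and 6.06 in KrasD12, against 5.11 and 5.34 in WT. The 2 KrasD12 arrays were far apart, and the difference of 0.59 ± 0.177 passed on the deposited values (adjusted p 0.0331) but not on the quantile scale (0.22, adjusted p 0.30). Hoxc9, a gene of the chest level, gave 0.50 and 0.11 on these scales. Hoxc13, needed for hair and nails, gave 0.52 and 0.12. Both had WT means under the dim level, and neither passed on both scalings. Hoxc10, Hoxc11 and Hoxc12, genes of the lumbar and tail levels, lay under the dim level by both group means, with deposited differences of 0.05, 0.03 and 0.23. Across the 9 genes of cluster C, the rank correlation of the difference with the paralog number was -0.77. The last 5 of these, Hoxc9 to Hoxc13, had means under the dim level, where differences can be compressed. The part of this in the correlation was not tested. The rank correlation was 0.19 in A (10 genes), -0.32 in B (9 genes) and 0.07 in D (9 genes), and the genes of a cluster share the same 4 arrays.

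**Figure D3:**
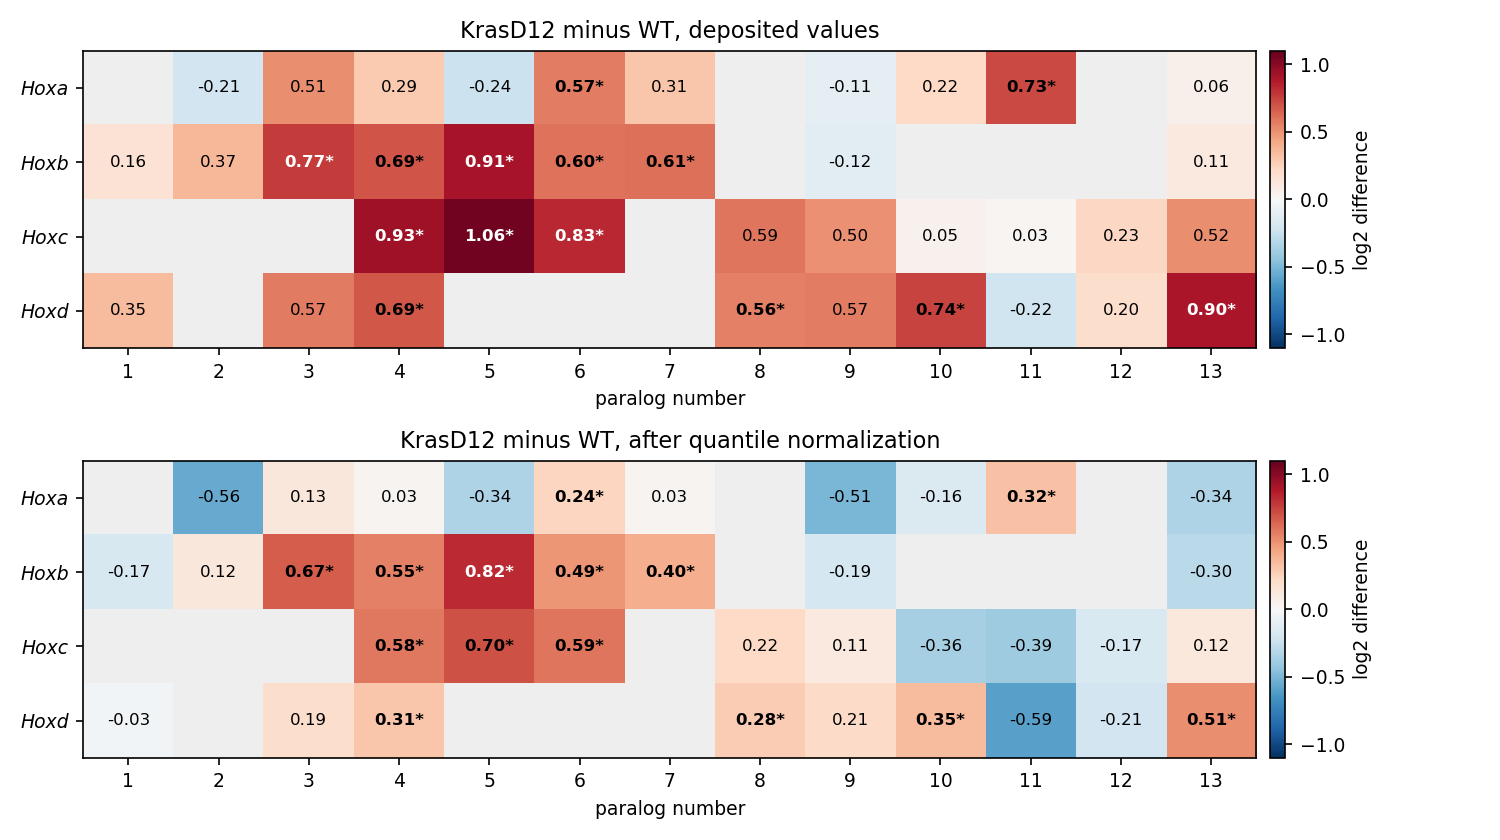
Log2 difference KrasD12 minus WT for each Hox gene, by cluster (rows) and paralog number (columns), on deposited values (above) and after quantile normalization (below); red is higher in KrasD12, blue lower, grey cells hold no gene measured here, and bold numbers with a star are genes that rose on both scalings. The starred cells gather in columns 4 to 8, with Hoxa4, Hoxa5, Hoxa7 and Hoxc8 as the unstarred cells of those columns.

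In cluster D 4 of 9 genes rose (44.4%, against 22.4% of all genes), and they did not form 1 run. Hoxd4 had 5.97 and 6.06 in KrasD12, against 5.45 and 5.21 in WT, a difference of 0.69 ± 0.101 (adjusted p 0.00343). Hoxd8 had 7.14 and 7.18 in KrasD12, against 6.68 and 6.53 in WT, a difference of 0.56 ± 0.0799 (adjusted p 0.00316). Their quantile differences were 0.31 and 0.28. Hoxd10, which helps to set up motor neurons of the hindlimb, had 5.56 in both KrasD12 arrays, against 4.82 in both WT arrays, a difference of 0.74 ± 0.0643 (adjusted p 0.000949). As deposited, its arrays did not differ within a group, so this SE comes from the spread of other genes.

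Hoxd13, the digit gene at the far end of the cluster, had 5.78 and 5.56 in KrasD12, against 4.74 and 4.80 in WT. It rose by 0.90 ± 0.0948 (adjusted p 0.00142), or 0.51 on the quantile scale. For Hoxd10 and Hoxd13 only the KrasD12 means lay above the dim level. The genes between them did not rise. Hoxd11, a gene of forearm and kidney, had 5.29 and 5.52 in KrasD12, against 5.62 in both WT arrays. Its difference was -0.22 (adjusted p 0.0994) on the deposited values and -0.59 (adjusted p 0.00263) on the quantile scale. Hoxd12 had 4.93 and 5.16 in KrasD12 and 4.84 and 4.86 in WT, under the dim level by its means.

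The other members of cluster D lay between these. Hoxd3 had 5.56 and 5.81 in KrasD12, against 5.07 and 5.16 in WT, and Hoxd9 had 6.08 and 6.31 in KrasD12, against 5.61 and 5.65 in WT. Their deposited differences of 0.57 and 0.57 passed, with adjusted p of 0.00644 and 0.00523, but the quantile differences of 0.19 and 0.21 did not. Hoxd1 had 5.70 and 5.49 in KrasD12, against 5.10 and 5.39 in WT. Its difference of 0.35 did not pass (adjusted p 0.058), and its quantile value was -0.03.

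Cluster A moved least, with 2 of 10 genes up (20%), near the 22.4% of all genes. Its median difference of 0.26 was near that of all genes, and on the quantile scale it was -0.0669. Hoxa5, the member best known for its role in lung, had 8.82 and 8.58 in KrasD12, against 8.91 and 8.97 in WT. Both KrasD12 arrays were lower, by 0.24 ± 0.0992 on average, which missed the threshold on the deposited values (adjusted p 0.0832) and passed it on the quantile scale (-0.34, adjusted p 0.0284). Its paralog Hoxb5 stood at 0.91 and Hoxc5 at 1.06, so the 3 genes of paralog group 5 did not move together. Whether Hoxa5 differs from its paralogs was not tested.

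Hoxa6 had 6.78 and 6.75 in KrasD12, against 6.20 in both WT arrays, a difference of 0.57 ± 0.065 (adjusted p 0.00173). With it, all 3 genes of paralog group 6 rose, and it was the only group in which every measured member did. Hoxa11, a gene of forearm, kidney and uterus, had 5.21 and 5.18 in KrasD12, against 4.54 and 4.40 in WT, a difference of 0.73 ± 0.0778 (adjusted p 0.00148). Its KrasD12 mean lay barely above the dim level and its WT mean under it.

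Hoxa2, which sets the identity of the face's pharyngeal arches, had 6.16 and 5.96 in KrasD12, against 6.27 in both WT arrays. The difference of -0.21 ± 0.0887 did not pass on the deposited values (adjusted p 0.0881), while the quantile value of -0.56 did (adjusted p 0.00512). Hoxa3, needed for the thymus and parathyroid, had 5.90 and 5.83 in KrasD12, against 5.37 and 5.34 in WT. Its deposited difference of 0.51 passed (adjusted p 0.00261) and its quantile difference of 0.13 did not (adjusted p 0.223).

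Hoxa4 had 7.07 and 7.30 in KrasD12, against 6.78 and 7.01 in WT, and Hoxa7 had 7.00 and 7.13 in KrasD12, against 6.88 and 6.64 in WT. Their differences of 0.29 and 0.31 were close to those of genes of like level, 0.25 and 0.27, and did not pass. Hoxa10, a gene of the uterus, gave 0.22 and -0.16 on the deposited and quantile scales, neither past the threshold. Hoxa9, known from leukaemia with its partner Meis1, and Hoxa13, a gene of digits and genital tract, lay under the dim level in both groups by their means. The values of Hoxa9 overlapped, with 4.79 and 4.86 in KrasD12 and 4.64 and 5.22 in WT. Hoxa13 had 5.11 in both KrasD12 arrays, against 5.02 and 5.09 in WT, a difference of 0.06.

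MicroRNA genes and long noncoding RNAs lie among the Hox genes. Of 10 such transcripts with a row, 3 rose (30%, against 22.4% of all genes) and 1 fell. Their median difference was 0.31, and 4 of the 10 lay above the dim level. The array rows read the miRNA genes, not the processed miRNAs, and no mature form was measured. The mature forms from RefSeq (GRCm38.p6), which had an entry for each of the 6 miRNA genes with a row, are shown because the loci that moved oppositely carry different seeds; capitals mark the seed, bases 2 to 8 counted from the 5′ end.
miR-10a-5p (chr11:96317186-96317208, plus strand): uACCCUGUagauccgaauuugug
miR-10b-5p (chr2:74726074-74726096, plus strand): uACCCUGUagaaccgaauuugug
miR-615-3p (chr15:103014969-103014990, plus strand): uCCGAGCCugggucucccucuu
miR-196a-5p (chr11:96265187-96265208, plus strand, from Mir196a-1): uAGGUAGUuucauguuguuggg
miR-196b-5p (chr6:52230129-52230150, minus strand): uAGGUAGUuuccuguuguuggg

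miR-10a-5p and miR-10b-5p share a seed and differ by U12A, and miR-196a-5p and miR-196b-5p share another and differ by A12C (first sequence, position from the 5′ end, second sequence). miR-196a-5p is also made from Mir196a-2 on chromosome 15. The seed of miR-615-3p is shared with none of the others printed.

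Mir10a lies upstream of the start of Hoxb4, inside the run of cluster B genes that rose. It had 6.16 and 5.88 in KrasD12, against 4.66 and 4.72 in WT, a difference of 1.33 ± 0.109 (adjusted p 0.000837), or 0.94 on the quantile scale. Its WT arrays were under the dim level and its KrasD12 arrays above it. Mir615 lies within the annotated span of Hoxc5. It had 7.93 and 8.08 in KrasD12, against 6.86 and 6.91 in WT, a difference of 1.12 ± 0.0804 (adjusted p 0.000682), or 0.90 on the quantile scale. Both miRNA genes rose, as did the Hox genes around them, but each lies in an overlapping span. Whether their rows read Hox RNA was not tested.

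Mir196a-1, on the tail side of Hoxb9, moved the other way. It had 6.17 and 5.64 in KrasD12, against 6.76 and 6.85 in WT, a difference of -0.90 ± 0.176 (adjusted p 0.00821), or -1.22 on the quantile scale. The KrasD12 arrays differed by more than the WT arrays but did not reach them. The miR-196 family is known to direct cleavage of Hoxb8 RNA in mouse embryos, and Hoxb8 was not analysed here. The other miRNA genes that share these seeds were under the dim level in all arrays, chosen for mention after their values were seen: Mir10b with 3.39 and 3.55 in KrasD12 and 3.08 and 3.19 in WT, Mir196b with 4.85 and 4.84 in KrasD12 and 4.57 and 4.56 in WT, and Mir196a-2 with 4.31 and 3.96 in KrasD12 and 4.19 and 4.07 in WT.

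Hoxaas2, an antisense RNA of cluster A beside Hoxa3, had 6.62 and 6.72 in KrasD12, against 5.77 and 5.97 in WT, a difference of 0.80 ± 0.0938 (adjusted p 0.00182). Annotated spans of neighbours overlap at Hoxb3, Hoxb4 and Mir10a, and at Hoxc5 and Mir615. They also overlap at Hoxa3 and Hoxaas2, at Hoxd3 and Hoxd4, and at Hoxd10 and Hoxd11. How far a row at these places reads its neighbour's RNA was not tested.

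**Figure D4:**
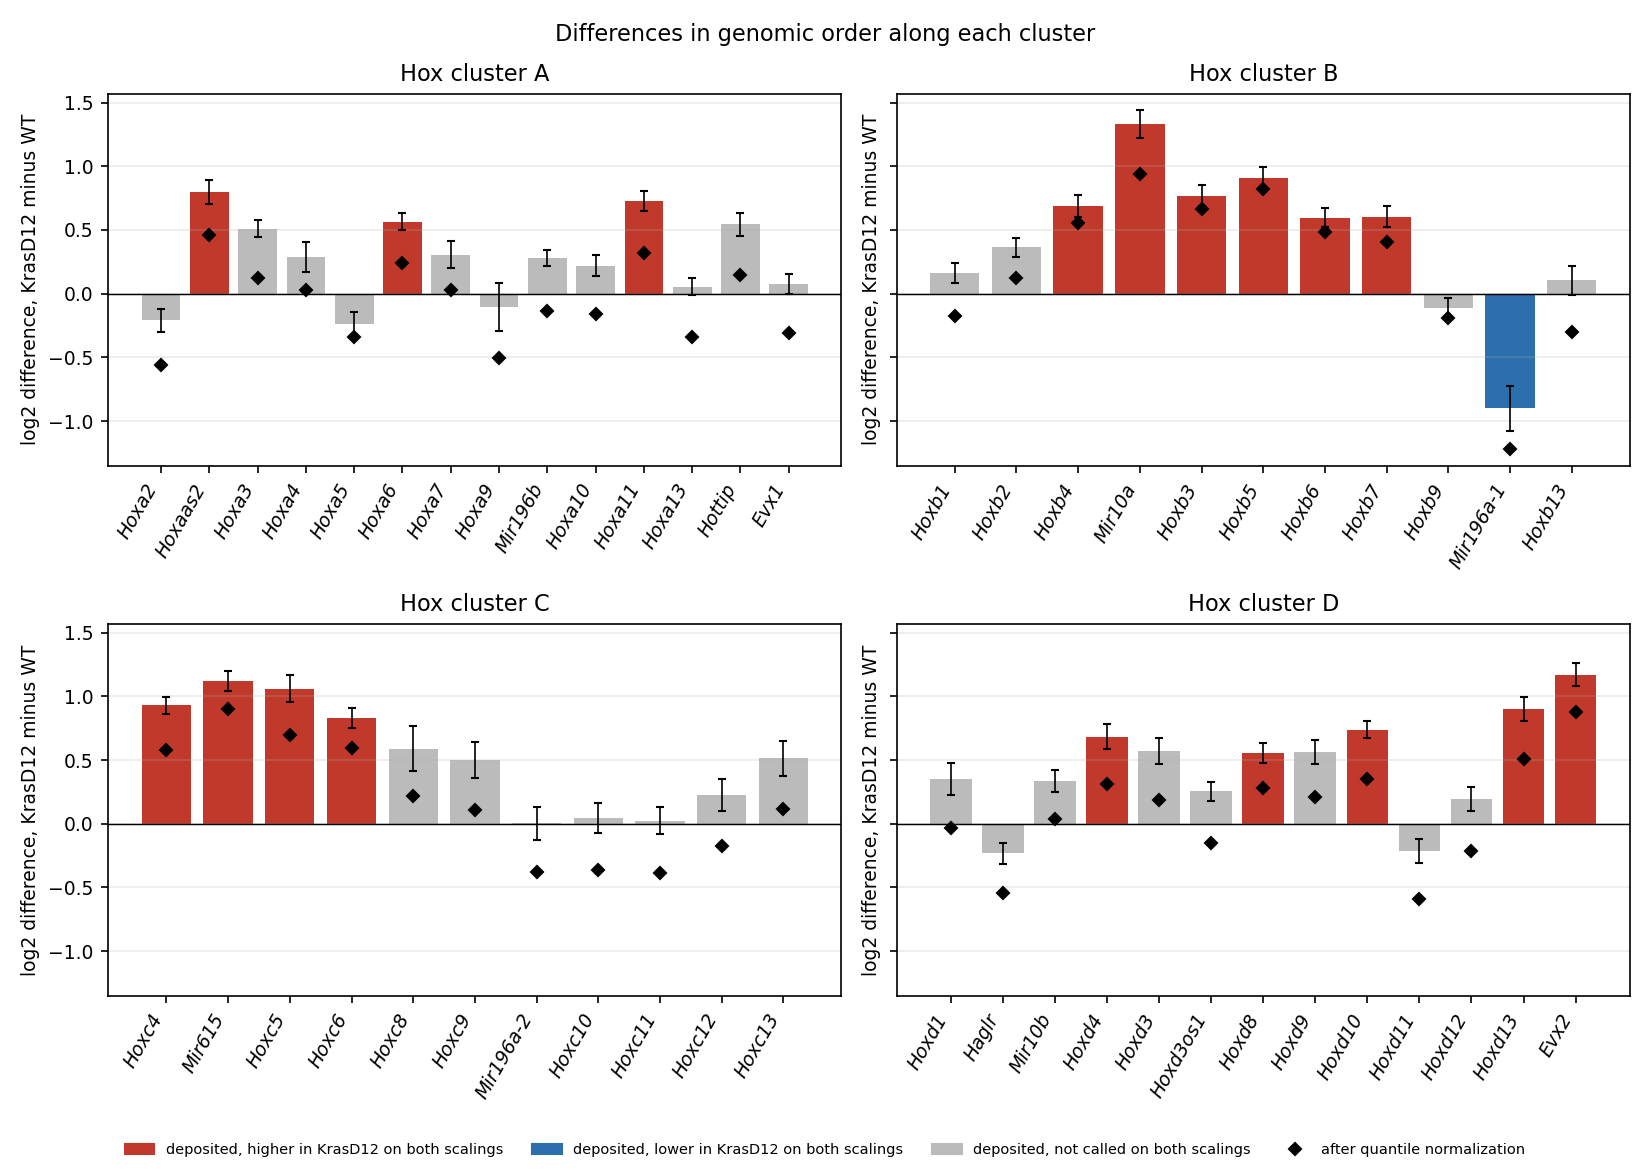
Log2 difference KrasD12 minus WT (y axis) of Hox genes, noncoding transcripts and the Evx genes in the order of their annotated starts, low paralog numbers at the left; bars are deposited differences with SE, red for genes higher and blue for genes lower in KrasD12 on both scalings, grey for the rest, and diamonds are quantile-normalized differences. Red bars run without a break from Hoxb4 to Hoxb7 and from Hoxc4 to Hoxc6, Mir196a-1 is the blue bar, and Evx2 stands at the end of cluster D beside Hoxd13.

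The promoters of paralog group 4 are printed because 3 of its 4 members, Hoxb4, Hoxc4 and Hoxd4, rose together from 3 chromosomes, with a median group difference of 0.69. RefSeq (GRCm38.p6) gave 300 bases for each, 250 before to 50 after the annotated start; Hoxa4 had no entry. Capitals mark TGACCT, the reverse complement of AGGTCA, the sequence that one unit of a retinoic acid receptor pair binds.
Hoxb4 (chr11:96318017-96318316, plus strand): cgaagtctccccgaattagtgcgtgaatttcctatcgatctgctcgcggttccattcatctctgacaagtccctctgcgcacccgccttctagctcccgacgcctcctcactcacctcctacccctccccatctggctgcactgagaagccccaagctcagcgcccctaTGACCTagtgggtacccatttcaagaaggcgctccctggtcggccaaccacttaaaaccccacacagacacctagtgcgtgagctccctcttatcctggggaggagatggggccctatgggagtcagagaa
Hoxc4 (chr15:103034145-103034444, plus strand): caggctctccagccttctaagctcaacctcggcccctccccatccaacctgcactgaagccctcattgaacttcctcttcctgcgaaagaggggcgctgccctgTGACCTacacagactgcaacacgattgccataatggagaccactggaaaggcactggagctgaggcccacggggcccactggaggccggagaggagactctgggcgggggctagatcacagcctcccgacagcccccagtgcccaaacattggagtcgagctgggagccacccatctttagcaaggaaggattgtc
Hoxd4 (chr2:74721728-74722027, plus strand): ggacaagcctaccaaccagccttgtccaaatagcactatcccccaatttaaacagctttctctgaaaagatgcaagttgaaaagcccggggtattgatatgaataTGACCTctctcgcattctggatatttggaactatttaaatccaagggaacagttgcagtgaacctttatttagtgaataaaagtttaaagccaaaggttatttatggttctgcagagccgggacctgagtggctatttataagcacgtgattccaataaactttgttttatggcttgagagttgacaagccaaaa

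Each window held 1 match, 81 bases before the start of Hoxb4, 146 before that of Hoxc4 and 145 before that of Hoxd4. The windows differ in make-up: the Hoxb4 window had 14 CpG and 58.0% G and C, the Hoxc4 window 9 CpG and 60.3%, and the Hoxd4 window 4 CpG and 39.7%, with a TATAAA on the other strand (TTTATA as printed) and none in the others on either strand. On both strands, AGGTCA was found in 16.26% of 32851 windows of all genes and in 7 of the 24 windows of 22 Hox genes. Those 7 belong to Hoxb4, Hoxc4, Hoxd4, Hoxd8 and Hoxd10, which rose, and to Hoxa5 and Hoxd3, which did not. No window of the risers Hoxa6 and Hoxd13 held it. It was 1 of 11 motifs searched and was picked for display after the matches were seen. A match in a window of this length is a description of the letters, and no binding was measured.

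Partners and regulators of Hox genes were read from lists of known members. The counts of these and later lists stand beside 22.4% of all genes that rose and 11.5% that fell. Of the 8 TALE homeodomain proteins measured, which bind DNA together with Hox proteins, 2 rose (25%) and 1 fell. Their median difference was 0.37. Pbx2 had 8.55 and 8.38 in KrasD12, against 7.72 and 7.79 in WT (difference 0.71 ± 0.0854, adjusted p 0.00195). Meis2 had 8.85 and 8.74 in KrasD12, against 8.28 and 8.25 in WT (difference 0.53 ± 0.0732, adjusted p 0.00282). Pbx3 had 7.85 and 7.87 in KrasD12, against 8.11 and 8.05 in WT (difference -0.22 ± 0.0672, adjusted p 0.0347). These 3 partners did not share a direction.

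Among 21 Polycomb genes 7 rose (33.3%) and 1 fell, and the median difference was 0.29, close to the 0.26 of all genes. Phc2, a subunit of Polycomb repressive complexes, had 7.87 and 7.92 in KrasD12, against 6.92 and 7.09 in WT, and rose by 0.89 ± 0.0841 (adjusted p 0.00111). Its relative Phc1 rose by 0.75, Pcgf6 by 0.77 and Cbx7, a reader of the Polycomb histone mark, by 0.69.

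Among 12 Trithorax genes and other activators 6 rose (50%) and 0 fell. The median difference was 0.44, or 0.29 on the quantile scale. Kmt2a, the histone methyltransferase that maintains Hox expression, had 9.70 and 9.69 in KrasD12, against 8.86 and 8.84 in WT, and rose by 0.85 ± 0.0647 (adjusted p 0.00076). Its tethering partner Psip1 rose by 0.86 on the deposited scale. Kdm6b and Kdm6a, enzymes that remove the Polycomb mark, rose by 0.77 and 0.72. Genes that keep Hox loci open and genes that close them thus both held members that rose.

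Of 19 genes of the retinoid pathway and the Cdx family, homeobox factors that act upstream of Hox genes, 5 rose (26.3%) and 4 fell. The 5 include Cdx1, named here after its value was seen, which rose by 0.84. Rdh10, which makes the precursor of retinoic acid, had 10.40 and 10.65 in KrasD12, against 9.08 and 9.11 in WT, and rose by 1.43 ± 0.10 (adjusted p 0.000659). Crabp1, a cytoplasmic carrier of retinoic acid, rose by 1.02. Aldh1a1, an enzyme of the last step to retinoic acid, had 8.64 and 8.50 in KrasD12, against 9.58 and 9.64 in WT, and fell by 1.04. Dhrs3, which turns retinal back into retinol, fell by 0.90 on the log2 scale. These 4 genes passed on both scalings, and no list of this kind measures retinoic acid itself.

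Of 23 genes that flank the clusters, 3 rose and 6 fell, and their median difference was 0.17. Evx2, the homeobox gene next to Hoxd13, had 7.22 and 7.37 in KrasD12, against 6.06 and 6.19 in WT, and rose by 1.17 ± 0.0884 (adjusted p 0.00075). Calcoco1, near cluster C, rose by 0.72. Nfe2 rose by 0.72 as well, from a WT mean under the dim level. Copz2, near cluster B, had 10.10 and 10.16 in KrasD12, against 10.82 and 10.72 in WT, and fell by 0.64. On both scalings, calls in the flanks were therefore more often lower than higher, the reverse of the Hox genes. On the deposited values 9 of the 23 were called higher and 6 lower, where 50.1% of all genes were called higher and 11.9% lower. On both scalings 22.4% of all genes rose and 11.5% fell. The difference between flanks and Hox genes was not tested.

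**Figure D5:**
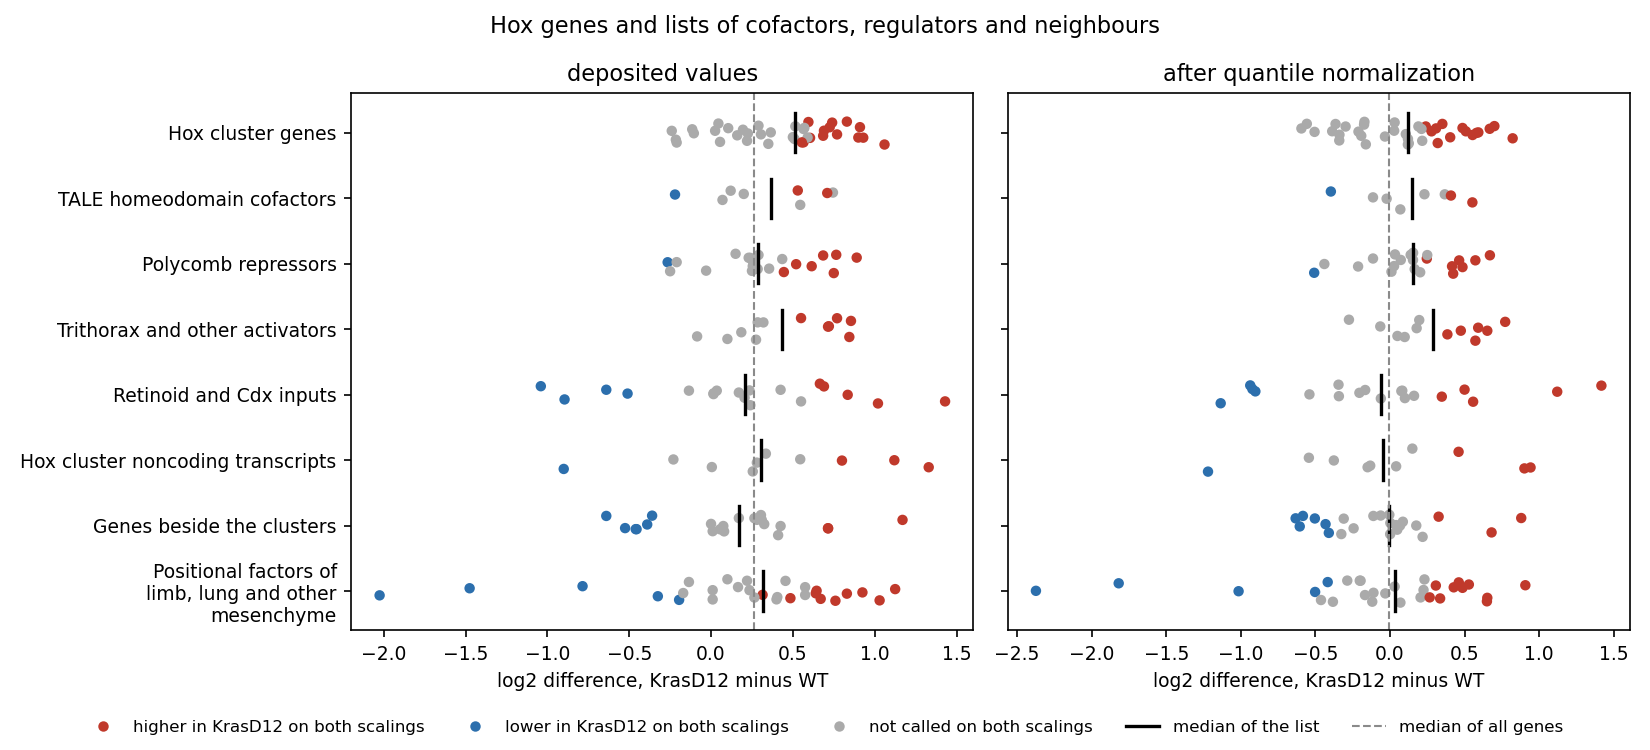
Log2 difference KrasD12 minus WT (x axis) for each gene of the Hox family and of 7 lists (rows), on deposited values (left) and after quantile normalization (right); red and blue points are genes higher and lower in KrasD12 on both scalings, black bars the list medians and dashed lines the median of all genes. The medians of the Hox, TALE, Polycomb, Trithorax and positional lists lie right of the dashed line in both panels, and the retinoid and positional lists spread widest.

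Other transcription factors of position and mesenchyme also differed. Of 29 measured, 10 rose (34.5%) and 5 fell, with a median difference of 0.32. Isl1, a gene of limb and heart fields, had 5.28 and 4.80 in KrasD12, against 6.67 and 6.36 in WT, and fell by 1.48 ± 0.186 (adjusted p 0.00221). Tcf21, whose values stand above, fell by 2.03 ± 0.138 (adjusted p 0.00063). Emx2, a gene of brain, kidney and shoulder blade, had 7.96 and 8.07 in KrasD12, against 6.91 and 6.87 in WT, and rose by 1.13 ± 0.0736 (adjusted p 0.00059). Dlx5, a bone and limb gene, rose by 1.03 with a WT mean under the dim level.

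Markers of other cell types were read the same way. On the deposited values alone, 50.1% of all genes were called higher and 11.9% lower. Of 6 markers of myofibroblasts and smooth muscle 5 fell, and the mean deposited level of the list was 7.01 and 6.92 in KrasD12, against 8.29 and 8.23 in WT. Of 9 epithelial markers 6 were higher on the deposited values, but only 1 rose on both scalings. This was Sftpc, the surfactant gene of alveolar epithelium, with 5.30 and 5.23 in KrasD12, against 4.39 and 4.30 in WT, and a difference of 0.92 ± 0.0732 (adjusted p 0.000807), or 0.52 on the quantile scale. Its KrasD12 arrays lay just above the dim level and its WT arrays under it. In all, 7 of the 9 epithelial markers lay above that level in KrasD12, against 4 in WT, and the list mean was 5.46 and 5.51 in KrasD12, against 5.03 and 5.04 in WT. The 2 under it in KrasD12, Scgb1a1 of club cells and Epcam, were under it in WT too. The epithelial median difference was 0.49 on the deposited and 0.17 on the quantile scale.

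Of 4 markers of Schwann cells and neurons, Elavl4 and S100b rose, by 1.57 and 0.88, and Tubb3 fell by 0.58 on the log2 scale. Their list mean was 5.64 and 5.50 in KrasD12, against 4.99 and 5.05 in WT, and 4 of 4 lay above the dim level in KrasD12, against 2 in WT. This small list thus held members of both directions. Of 7 endothelial markers 5 were higher on the deposited values and 0 rose or fell on both scalings. Their median difference was 0.31 on the deposited and -0.10 on the quantile scale, so they did not stand above the general shift. In that list 3 lay above the dim level in KrasD12, against 2 in WT, with list means from 5.32 to 5.35 in KrasD12, against 4.96 to 5.07 in WT.

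Of 7 immune markers 1 rose and 2 fell, 2 lay above the dim level in KrasD12, against 4 in WT, and the list mean ran from 5.03 to 5.11 in KrasD12, against 4.98 to 4.99 in WT. Of 4 mesothelial markers 2 were higher on the deposited values and 0 rose or fell on both scalings. For mesothelium 3 of 4 lay above the dim level in both groups, with list means from 5.78 to 5.85 in KrasD12, against 5.58 to 5.63 in WT. The part of other cells in the Hox differences was not tested.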

How the data were processed

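Per the labels, biotin-labelled total RNA of 4 samples was hybridised to Affymetrix mouse gene arrays. The deposited values are log2 expression values, read as such from their range of 2.28 to 14.95. Per the submitters' processing notes the authors used the Transcriptome Analysis Console. Its version was not given in the sources used here, nor was the background correction or the normalization. Of 28944 rows, 21789 have 1 symbol, 1621 several and 5534 none; rows with 1 symbol entered, and for 999 genes with several rows the row of highest mean stood for the gene. Symbols were updated through the gene table of GRCm38.p6, which matched 21698 rows, and rows with several symbols, 1 of them with Hox genes, were left out.

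Groups (2 samples each, 2 residual degrees of freedom) were compared with limma 3.58.1 in R 4.3.3 (lmFit, eBayes, group only, two-sided), with Benjamini-Hochberg adjustment over 19938 genes and a threshold of 0.05. Quantile, cyclic loess and median scaling were computed over all rows. The number of arrays limits the precision. Levels of different probes were not set against each other, so the planned ranking of levels by paralog number is not given. Sequences of RefSeq promoters and miRNAs were read with Python 3.11.15 and pandas 2.3.3, figures were drawn with matplotlib 3.10.9, and tables were read with data.table (1.17.8). Protein sequences were not used here. Every Hox gene may be named; from each other list the text names up to 4 members called on both scalings with the largest differences, or the 2 largest where fewer than 2 were called, and says where it adds others. Tcf21, named also as a lung marker, and the dim epithelial markers Scgb1a1 and Epcam were named for their levels. Listed genes without a row are not analysed here. The Hox genes, the lists and the tests were chosen with earlier results of these data known. The letters A and B were not shown to pair the samples: deviations of A minus B correlated at 0.0132 between the groups over all genes. Scripts were tested on simulated data.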

Additional observations from a re-analysis of the deposited data

How the results depend on the processing

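Leaving out an array and scaling both moved the counts. Of all genes, 9991 were called higher on the deposited values, 4485 after quantile normalization, 3574 after median centring and 4533 after cyclic loess, and 0 to 4623 with an array left out. Those called lower were 2381, 4861, 6657 and 4933 in the same order, and 0 to 1160 with an array left out. Of Hox genes called higher there were 21, with 13 after median centring and 0 to 14 with an array left out; called lower there were 0, with 6 after quantile normalization, 6 after median centring, 7 after cyclic loess, 1 with an eBayes trend and 0 to 1 with an array left out. Their median difference of 0.51 was 0.1206 after quantile normalization, 0.165 after median centring, 0.1117 after cyclic loess and 0.405 to 0.495 with an array left out. The 14 that rose on both scalings were 14 with cyclic loess as the second scaling, 0 at 2-fold and 0 to 5 with an array left out, where 0 to 1 fell. Without 1 of the WT arrays no gene passed in limma (smallest adjusted p 0.0552 without A and 0.053 without B), and the lone array is then assumed to vary like the other group.

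Single genes that changed sign were not called on the deposited values. In the order quantile, median centring and cyclic loess they were Hoxa10 (-0.16, -0.12, -0.19), Hoxa13 (-0.34, -0.29, -0.35), Hoxb1 (-0.17, -0.18, -0.17), Hoxb13 (-0.30, -0.24, -0.30), Hoxc10 (-0.36, -0.30, -0.34), Hoxc11 (-0.39, -0.32, -0.36), Hoxc12 (-0.17, -0.12, -0.18) and Hoxd12 (-0.21, -0.15, -0.21). Hoxd1 had -0.03 after quantile normalization and -0.06 after cyclic loess, and median centring alone turned Hoxa4 (-0.05) and Hoxa7 (-0.04). With an array left out, Hoxa9 ran from -0.39 to 0.19, Hoxb13 from -0.04 to 0.26, Hoxc10 from -0.11 to 0.20 and Hoxc11 from -0.10 to 0.16. Beyond these differences in the columns' distributions, the cause was not tested. With the letter as a replicate block, 20 Hox genes were called higher and 0 lower, 14 rose on both scalings, all genes gave 8350 higher and 1910 lower, and 3 single Hox genes changed their call.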
